A study of Homo sapiens with 4 samples.

Results

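The genes described here are IL2, IL21, IL10 and LIF, 4 cytokine genes of T cells, measured in HUT78 cells treated with CSH71 and in untreated HUT78 cells. They were found by their symbols in the annotation of the array platform, which gave 1 probe set each: 16979570 for IL2, 16979578 for IL21, 16698684 for IL10 and 16933760 for LIF. These are 4 of 14884 named genes and 4 of 53617 probe sets. The 4 genes were picked with their differences between these same arrays already known, so their values are a description and no test of them is given.

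HUT78 is an established human T-cell line of Sézary syndrome, a cutaneous T-cell lymphoma with malignant cells in the blood. The CSH71 group had 2 samples, exposed to CSH71 at 250 nM for 30 h, and the untreated group had 2 samples of the same line grown without it. CSH71 is described in the series as a compound directed at p38γ, the kinase encoded by MAPK12, through its lipid-binding domain. Both groups are 1 cell line in serum-containing medium, and nothing in the labels tells whether the duplicates were grown separately. A p-value here therefore covers the spread between these arrays alone, and that spread may be technical.

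IL2 is the growth factor that activated T cells make for themselves and their neighbours. Its promoter is a textbook example of a gene that needs NFAT, AP-1 and NF-κB together, which links it to calcium, mitogen-activated protein kinase and costimulatory signals. IL21, made by follicular helper and other helper T cells, signals through a receptor that shares the common gamma chain with the IL2 receptor, and IL2 acts mainly through STAT5 where IL21 acts mainly through STAT3. IL10 restrains antigen-presenting cells and inflammatory T cells and signals through STAT3. LIF belongs to the IL6 family, whose members signal through receptors that contain gp130, the product of IL6ST.

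The windows around the annotated starts of IL2, IL21 and IL10 are shown to give the sequence at 3 genes whose signal differed in direction between the groups. Each runs from 250 bases before to 50 bases after the start of the gene in RefSeq (build GRCh38.p14), on the minus strand, at chr4:122456676-122456975 for IL2, chr4:122621017-122621316 for IL21 and chr1:206772445-206772744 for IL10. A window was found for 3 of the 4 genes, and LIF is named only. For IL2 the annotated start lies upstream of the start used in most work on this gene. The window therefore stops short of that start and holds at most a part of the well-studied promoter before it. The sequences read 5′ to 3′ in the direction of transcription. Capitals mark each GGAAA, the core to which NFAT factors bind, or its reverse complement TTTCC.
IL2: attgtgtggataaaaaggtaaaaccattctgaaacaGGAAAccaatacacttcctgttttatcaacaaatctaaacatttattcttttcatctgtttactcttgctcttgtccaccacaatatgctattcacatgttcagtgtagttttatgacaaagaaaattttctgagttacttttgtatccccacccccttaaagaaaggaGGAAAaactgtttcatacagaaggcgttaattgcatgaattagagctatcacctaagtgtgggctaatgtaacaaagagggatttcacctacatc
IL21: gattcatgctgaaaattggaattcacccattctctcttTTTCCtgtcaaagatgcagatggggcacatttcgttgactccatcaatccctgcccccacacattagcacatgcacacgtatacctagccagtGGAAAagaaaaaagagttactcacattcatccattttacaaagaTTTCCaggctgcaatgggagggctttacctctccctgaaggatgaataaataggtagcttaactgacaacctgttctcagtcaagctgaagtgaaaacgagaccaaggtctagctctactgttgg
IL10: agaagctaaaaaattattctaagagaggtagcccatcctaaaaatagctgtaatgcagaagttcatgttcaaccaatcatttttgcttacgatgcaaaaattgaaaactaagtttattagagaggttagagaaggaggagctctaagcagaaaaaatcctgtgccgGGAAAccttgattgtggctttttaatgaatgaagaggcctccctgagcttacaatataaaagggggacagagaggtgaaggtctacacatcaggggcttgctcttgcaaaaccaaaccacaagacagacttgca

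IL2 held 2 of these cores, at offsets of -214 and -45 from the gene's start. IL21 held 3, at -212, -119 and -75, and IL10 held 1, at -84. GGAAA is short and common: on either strand, 61.2% of 35116 promoter windows of the same length held at least 1, 27.5% at least 2 and 9.9% at least 3. The AP-1 site TGANTCA stood in 0 of the 3 windows and in 7.7% of all windows, and the cAMP response element TGACGTCA in 0 of the 3 and in 1.8% of all. Both were searched on both strands. TATAAA, searched on the coding strand, occurred 1 time in IL10, at -30, where it overlapped no GGAAA, and in 7.3% of all windows. These matches describe the letters in the windows alone, and sites that depart from these letters were not counted. For IL2 the window holds at most a part of the well-studied promoter.

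The deposited values are linear intensities of probe-set signal. They come without detection calls or background estimates, so presence or absence of a gene cannot be stated. All differences are given on the scale of log2(intensity + 16), on which the change of a dim gene is understated. Array medians over all probe sets ran from 73.6 to 81.1 in CSH71 and from 71.5 to 77.5 in untreated samples. Of 10 T-cell markers 6 were measured: CD2, CD247, CD28, CD4, CD5 and LCK. Their summed intensity was 4621 to 4885 in CSH71 and 4689 to 4725 in untreated samples, with 0 of the 6 called by limma. CD3D, CD3E and CD3G were not analysed here.

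Markers of other cell types were also examined, and 0 of their 14 measured genes were called by limma (0 of 20 with the T-cell markers, at an adjusted p under 0.05) and 0 were listed at 0 on an array. Summed intensities in CSH71 and untreated samples were 328 to 454 and 360 to 503 for 2 of 6 B-cell markers, and 419 to 530 and 431 to 575 for 5 of 7 monocyte markers. They were 736 to 792 and 701 to 732 for 3 of 5 natural killer cell markers, and 2546 to 2869 and 2652 to 2777 for 4 of 6 fibroblast and epithelial markers. EPCAM, an epithelial adhesion molecule, made up most of the last sum, at 2056 in CSH71 and 2062 in untreated samples.

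IL2 was the cytokine with the largest difference. Its intensity was 201 and 174 in CSH71 replicates 1 and 2, against 42.1 and 32.1 in untreated replicates 1 and 2. Both CSH71 arrays were high and both untreated arrays were low, with a wide gap between the groups. The means were 188 ± 18.9 in CSH71 and 37.1 ± 7.10 in untreated samples (SD, n = 2 each), a ratio of 5.06. The untreated signal was dim and is not shown to lie above background, so the ratio describes the measured signal and is no exact fold of RNA. In such bulk samples, more RNA per cell and more cells that make the RNA cannot be told apart. On the log2 scale the difference was 1.94 ± 0.19 (SE from limma), and it was 2.32 and 1.32 with added constants of 1 and 64 in place of 16. The 4 differences that can be formed between a CSH71 and an untreated array lay between 1.71 and 2.17, while the replicates of a group differed by 0.19 in CSH71 and 0.27 in untreated samples.

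IL21 lies beside IL2 on chromosome 4, and its difference had the same sign and was smaller. Its intensity was 59.1 and 46.4 in CSH71 replicates 1 and 2, against 27.2 and 34.6 in untreated replicates 1 and 2. The CSH71 arrays were the higher ones. On the linear scale, however, the nearest arrays of the groups, at 46.4 and 34.6, lay no farther apart than the CSH71 replicates. The means were 52.7 ± 8.93 and 30.9 ± 5.23 in CSH71 and untreated samples (SD, n = 2 each), a ratio of 1.71 and a log2 difference of 0.55 ± 0.19 (SE). Between single arrays the log2 difference ran from 0.30 to 0.80, against replicate gaps of 0.27 in CSH71 and 0.23 in untreated samples. Because the signal is dim, the value depends on the added constant, and with 64 in place of 16 it was 0.30.

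IL10, the inhibitory cytokine, was the member with lower signal in CSH71. Its intensity was 116 and 98.9 in CSH71 replicates 1 and 2, against 135 and 149 in untreated replicates 1 and 2. Both CSH71 arrays were below both untreated arrays. The means were 107 ± 12.0 and 142 ± 9.84 in CSH71 and untreated samples (SD, n = 2 each), a ratio of 0.756 and a log2 difference of -0.36 ± 0.18 (SE). The 4 differences between single arrays ran from -0.20 to -0.52, and the smallest was about as large as the gap of 0.20 between the CSH71 replicates.

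LIF, named for its inhibition of leukaemia cells and a cytokine of the IL6 family, had an intensity of 242 and 270 in CSH71 replicates 1 and 2, against 184 and 195 in untreated replicates 1 and 2. Both CSH71 arrays were above both untreated arrays. The means were 256 ± 19.9 and 189 ± 7.47 in CSH71 and untreated samples (SD, n = 2 each), a ratio of 1.35 and a log2 difference of 0.41 ± 0.17 (SE). Single arrays of the 2 groups differed by 0.29 to 0.52 on the log2 scale. That is more than the gap of 0.15 between the CSH71 replicates and of 0.07 between the untreated replicates.

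**Figure D1:**
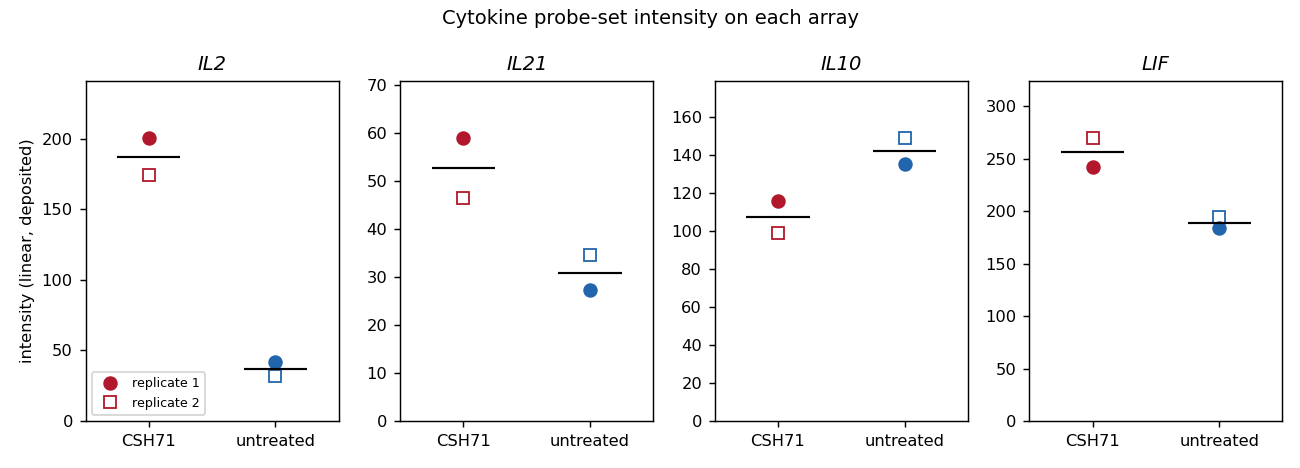
Deposited linear intensity (vertical axis, from 0, with its own range in each panel) of IL2, IL21, IL10 and LIF on the 2 CSH71 and the 2 untreated arrays; filled circles are replicate 1, open squares replicate 2 and bars the group means. The CSH71 points lie above the untreated points for IL2 (means 188 and 37.1), IL21 (52.7 and 30.9) and LIF (256 and 189), and below them for IL10 (107 and 142).

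The groups did not overlap for any of the 4 genes, with 3 higher and 1 lower in CSH71. Of all 14884 genes, 15.0% did not overlap and were higher in CSH71 and 16.6% did not overlap and were lower, 31.6% in all. A difference of at least 2-fold upwards was found for 1 of the 4, IL2, and for 0.202% of all genes, and one downwards for 0 of the 4 and for 0.0336% of all genes. In the limma fit over all genes, at a Benjamini-Hochberg adjusted p under 0.05, 1 of the 4 was called, again IL2, with 0.0470% of all genes called, 0.0403% as higher and 0.00672% as lower. An unadjusted p under 0.05 was found for 5.11% of all genes. The members were chosen on this contrast, so nothing is read from these counts. Ranked from the highest difference to the lowest among 14884 genes, IL2 was at place 6, IL21 at 330, LIF at 786 and IL10 at 14150.

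The IL2 call held in 8 of 14 alternatives that included the gene. It ended with an added constant of 1, after quantile normalization, with all 53617 probe sets in the fit, with crossed pairs as a block, and without untreated replicate 1 or untreated replicate 2, and under each of those 6 limma called 0 genes. IL21, IL10 and LIF were called under 0 of their alternatives. The differences themselves kept their signs throughout and ran from 1.32 to 2.32 for IL2, 0.30 to 0.75 for IL21, -0.46 to -0.26 for IL10 and 0.33 to 0.48 for LIF.

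**Figure D2:**
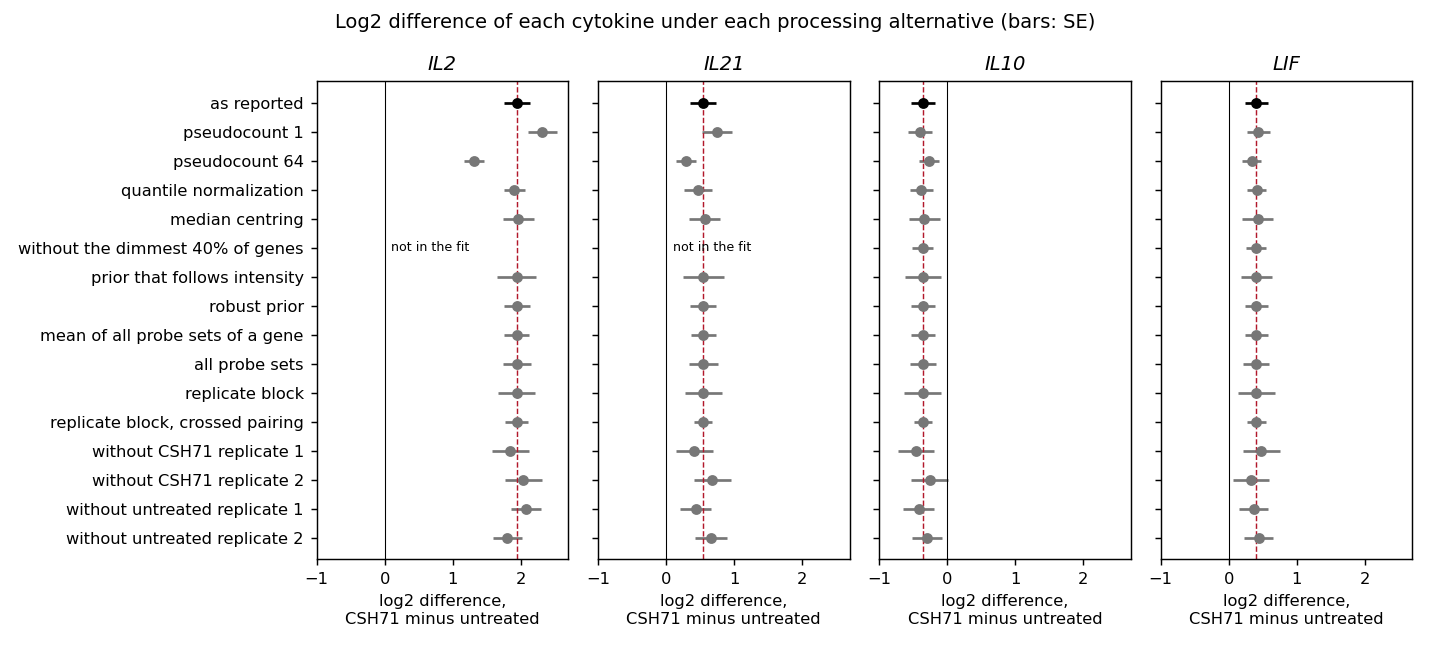
Log2 difference, CSH71 minus untreated (horizontal axis), of each cytokine as reported (black) and under each processing alternative (grey), with bars of 1 SE; the dashed line is the reported value and the solid line is 0. Every point stays on its side of 0, and the added constants of 1 and 64 move IL2 to 2.32 and 1.32 and IL21 to 0.75 and 0.30.

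The profile of IL2 over the 4 arrays was close to few other genes, while those of the other 3 cytokines were close to many. Likeness was measured as the root-mean-square difference between log2 values over the 4 arrays after each gene's mean was removed, and since all arrays of the study enter it, it holds the contrast itself. The 5 genes nearest to IL2 were FOSL2 at 0.10, DUSP4 at 0.19, EGR1 at 0.21, SGK1 at 0.24 and NABP1 at 0.25. FOSL2 is an AP-1 factor, DUSP4 a phosphatase of mitogen-activated protein kinases, EGR1 an immediate early transcription factor, SGK1 a glucocorticoid-induced kinase, and NABP1 binds single-stranded DNA. The log2 differences of these 5 genes ran from 1.59 for NABP1 to 2.18 for DUSP4, and each had groups that did not overlap.

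Within a distance of 0.2, IL2 had 2 genes, IL21 1140, LIF 3181 and IL10 5065, so the nearest genes of the last 3 are a few of very many. The distance is not scaled to the size of a gene's change, so these counts largely restate how large each difference was. Nearest to IL21 were MIR516B2, DISC2, SDE2, YPEL5 and SLC25A51P4, at distances of 0.016 to 0.041. Nearest to IL10 were PTGES3L-AARSD1, CERS4, VWA5B1, GEMIN5 and N4BP3, at 0.0080 to 0.017. Nearest to LIF were MIR548T, FAM30A, KLHL28, NUP50-DT and ZAN, at 0.0079 to 0.023. PTGES3L-AARSD1 is a read-through gene and SLC25A51P4 a pseudogene, so their probes can share transcripts with related genes.

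**Figure D3:**
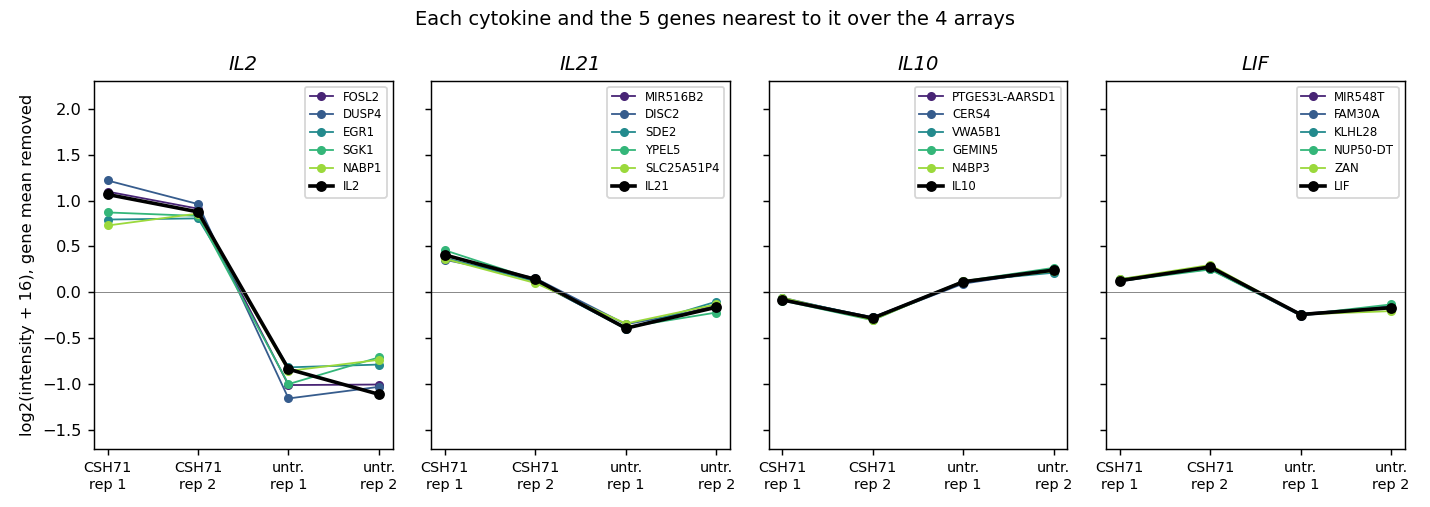
Log2(intensity + 16) with each gene's mean over the 4 arrays removed (vertical axis) on the CSH71 and untreated arrays (horizontal axis), for each cytokine (black) and the 5 genes nearest to it (coloured). IL2 and its neighbours FOSL2, DUSP4, EGR1, SGK1 and NABP1 separate widely between the groups, and the other 3 cytokines move within a narrow band that their neighbours follow closely.

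The genes that lie next to the 4 cytokines did not all share their differences. On chromosome 4, IL2 and IL21 are neighbours among the measured genes. ADAD1, on the other side of IL2, had 32.7 and 59.1 in CSH71 replicates 1 and 2, against 80.1 and 41.8 in untreated replicates 1 and 2, with overlapping groups. BBS12, on the other side of IL21, had 382 and 282 in CSH71 replicates 1 and 2, against 275 and 278 in untreated replicates 1 and 2. The lower CSH71 array of BBS12 lay close to the untreated arrays, and its log2 difference of 0.24 ± 0.20 (SE) was not called.

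On chromosome 1, IL10 lies between MAPKAPK2, a kinase activated by p38, and IL19, a cytokine of the IL10 family. MAPKAPK2 had 2452 and 2367 in CSH71 replicates 1 and 2, against 2105 and 2071 in untreated replicates 1 and 2. Its groups did not overlap, in the direction opposite to IL10, and those of IL19 overlapped. The log2 difference was 0.20 ± 0.16 (SE) for MAPKAPK2 and 0.00 ± 0.29 for IL19, and neither was called. On chromosome 22, LIF lies beside OSM, which encodes oncostatin M, another IL6 family cytokine that signals through gp130. OSM had 81.4 and 82.3 in CSH71 replicates 1 and 2, against 34.5 and 33.7 in untreated replicates 1 and 2. Replicates lay close together in each group and the groups were far apart, but the log2 difference of 0.97 ± 0.16 (SE) did not pass the threshold over all genes (limma adjusted p = 0.505). HORMAD2, on the other side of LIF, had a log2 difference of -0.07 ± 0.23 (SE).

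Other cytokines were examined in 4 lists, in which 0 genes were called by limma. The first held 4 measured genes, the common gamma chain cytokines IL15, IL4 and IL7 and also TSLP. The others held 5 measured genes of the IL10 family, 6 of the IL6 family and 22 other cytokines and chemokines of T cells. At an unadjusted p under 0.05 there were 0, 0, 1 and 1 of them, namely OSM and TNF. The medians of the log2 differences were 0.02, 0.00, 0.05 and -0.04 in the same order, beside -0.01 over all genes tested. Positive differences numbered 2 of 4, 3 of 5, 4 of 6 and 9 of 22. TNF, an inflammatory cytokine that the series' design text names, had 705 and 570 in CSH71 replicates 1 and 2, against 273 and 310 in untreated replicates 1 and 2 (log2 difference 1.08 ± 0.19, SE, limma adjusted p = 0.515).

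The remaining genes of these lists had smaller differences. Among gamma chain cytokines, IL15 was at -0.35 ± 0.30 (SE), IL4 at 0.17 ± 0.27 and IL7 at 0.16 ± 0.30. IL4 and IL13 are the cytokines of type 2 helper cells, and IL13 was at -0.28 ± 0.17. In the IL10 family, IL22 was at -0.20 ± 0.19, IL20 at 0.15 ± 0.17 and IL24 at 0.10 ± 0.19. In the IL6 family, CTF1, which encodes cardiotrophin, was at -0.31 ± 0.27 and IL11 at 0.15 ± 0.20. As a description, the log2 difference of IL2 as reported lay above that of each of the 33 other cytokines measured in these lists.

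Receptors were sparsely covered, with 2 of 8 genes measured. IL21R, the specific chain of the IL21 receptor, had 308 and 244 in CSH71 replicates 1 and 2, against 136 and 183 in untreated replicates 1 and 2. Both CSH71 arrays were above both untreated ones, and the log2 difference of 0.74 ± 0.21 (SE) was not called (limma adjusted p = 0.927, unadjusted p = 0.0103). LIFR, a chain of the LIF receptor, was at -0.26 ± 0.23 with overlapping groups. The chains of the IL2 and IL10 receptors and IL6ST were not analysed here.

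**Figure D4:**
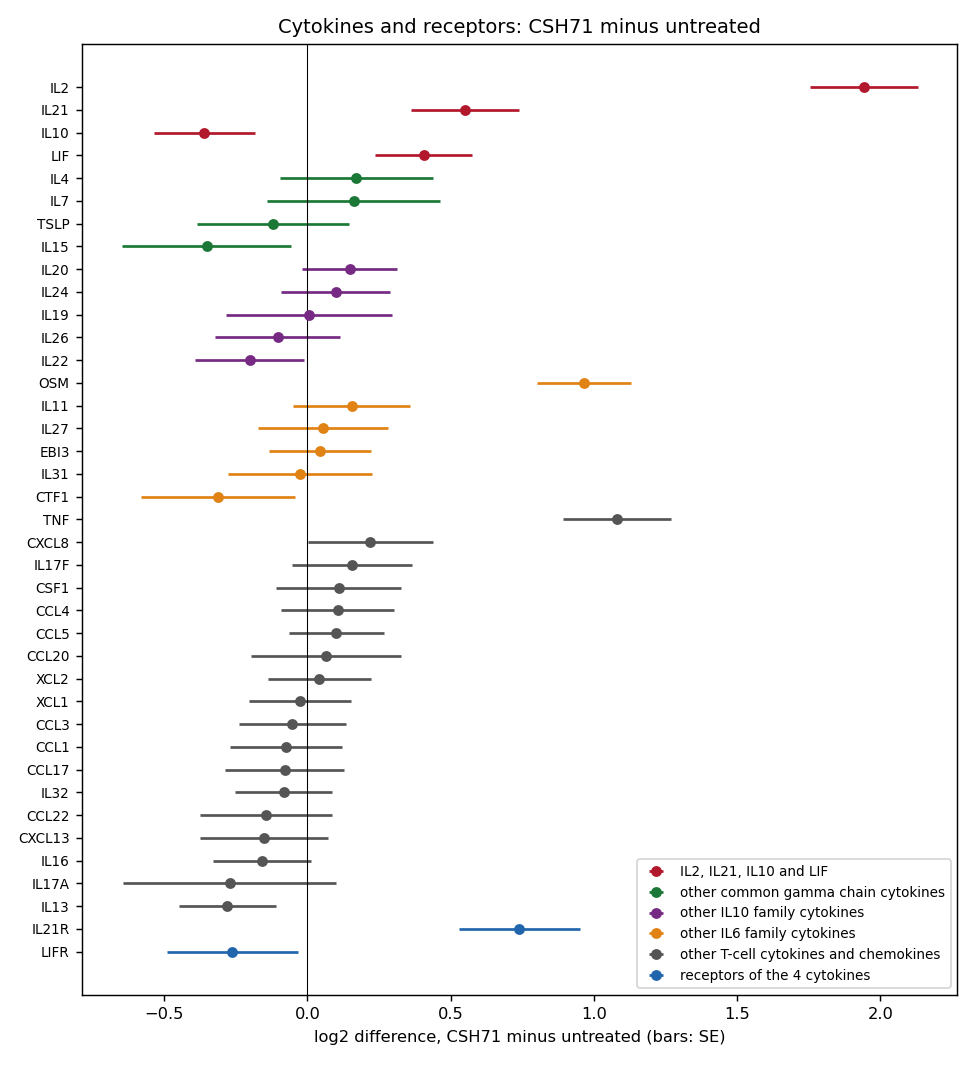
Log2 difference, CSH71 minus untreated (horizontal axis), with bars of 1 SE, for the 4 cytokines and the other measured cytokines and receptors, each gene drawn 1 time in the colour of its list. IL2 at 1.94 lies farthest to the right, followed by TNF at 1.08, OSM at 0.97 and IL21R at 0.74.

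Downstream of the receptors, 0 of 8 measured JAK and STAT genes were called by limma, with 1 at an unadjusted p under 0.05 and a list median of 0.01. That gene was STAT4, which relays IL12 signals in T cells, with 464 and 367 in CSH71 replicates 1 and 2, against 175 and 200 in untreated replicates 1 and 2 (log2 difference 1.08 ± 0.19, SE, limma adjusted p = 0.515). STAT5A, a factor that relays IL2 signals, was at -0.32 ± 0.17 and JAK2 at 0.15 ± 0.18. STAT3, the factor that relays IL10, IL21 and LIF signals, had overlapping groups.

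Of 8 measured SOCS-family inhibitors of these pathways 0 were called by limma (0 at an unadjusted p under 0.05), with a median of 0.14. CISH, which STAT5 induces, had 570 and 444 in CSH71 replicates 1 and 2, against 603 and 626 in untreated replicates 1 and 2. Its log2 difference was -0.28 ± 0.19 (SE), that of SOCS4 was 0.32 ± 0.23 and that of SOCS2 was 0.23 ± 0.20. Among 12 measured target genes of IL2 and STAT5, 0 were called and 1, OSM, had an unadjusted limma p under 0.05. The median of that list was -0.10, with 4 positive and 8 negative differences. BCL2, which protects lymphocytes from apoptosis, was at 0.33 ± 0.19 and PRF1, perforin, at -0.28 ± 0.17.

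Factors of the families that act on IL2 transcription were also listed, with earlier results of these data known, so their counts are no independent evidence. Beside the counts, 0.0403% of all genes were called as higher and 5.11% had an unadjusted p under 0.05. In the list of AP-1 and EGR factors, JUN and FOSL2 rose, 0 of 14 measured genes fell and 12 did not pass. Their median was 0.14, and 5 had an unadjusted limma p under 0.05. JUN, a subunit of AP-1, had 857 and 800 in CSH71 replicates 1 and 2, against 88.7 and 127 in untreated replicates 1 and 2. FOSL2 had 338 and 295 in CSH71 replicates 1 and 2, against 66.3 and 66.6 in untreated replicates 1 and 2. Both genes were far apart between the groups, with log2 differences of 2.79 ± 0.21 for JUN and 2.01 ± 0.17 for FOSL2 (SE, limma adjusted p = 0.0224 and 0.0245). EGR1, at 1.60 ± 0.16, did not pass (adjusted p = 0.0516).

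In the list of NF-κB and CREB factors, 1 of 11 measured genes rose and 10 did not pass, and the median was 0.07. The gene that rose was CREM, whose products include a repressor that has been described on the IL2 promoter, with 1261 and 1127 in CSH71 replicates 1 and 2, against 176 and 232 in untreated replicates 1 and 2. Its log2 difference was 2.47 ± 0.20 (SE, limma adjusted p = 0.0245). REL, which encodes c-Rel, the NF-κB subunit that T cells need for full IL2 production, was at 0.59 ± 0.17 (adjusted p = 0.927) and CRTC3, a CREB coactivator, at -0.25 ± 0.18.

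In the list for NFAT and calcineurin, 0 of 9 measured genes were called by limma (1 at an unadjusted p under 0.05) and the median was 0.01. The NFAT genes and calcineurin subunits themselves were not analysed here, so the list holds their scaffolds, kinases and inhibitors. AKAP5, an anchoring protein of calcineurin and protein kinase A, was at 0.72 ± 0.19 (SE, adjusted p = 0.927), DYRK2 at -0.27 ± 0.21 and RCAN1, a calcineurin inhibitor that NFAT induces, at -0.12 ± 0.25.

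Lineage factors and repressors of cytokine genes had 0 of 24 measured genes called by limma and 4 at an unadjusted p under 0.05, with a median of -0.02. MAF, a factor that promotes IL21 and IL10 in T cells, had 141 and 104 in CSH71 replicates 1 and 2, against 69.9 and 71.5 in untreated replicates 1 and 2 (log2 difference 0.66 ± 0.20, SE, limma adjusted p = 0.927). BCL6, the factor of follicular helper cells, was at 0.59 ± 0.17 and SATB1, a chromatin organiser of T cells, at 0.72 ± 0.18 (adjusted p = 0.927 for each). IKZF3, the Ikaros-family factor Aiolos, had 98.0 and 75.9 in CSH71 replicates 1 and 2, against 113 and 175 in untreated replicates 1 and 2 (log2 difference -0.62 ± 0.24, SE, limma adjusted p = 0.944). MAF, BCL6 and SATB1 were higher on both CSH71 arrays and IKZF3 was lower on both, without passing the threshold. Of the 24 genes in this list, 6 did not overlap between the groups and were higher in CSH71, and 9 did not overlap and were lower. The shares over all genes were 15.0% and 16.6%.

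**Figure D5:**
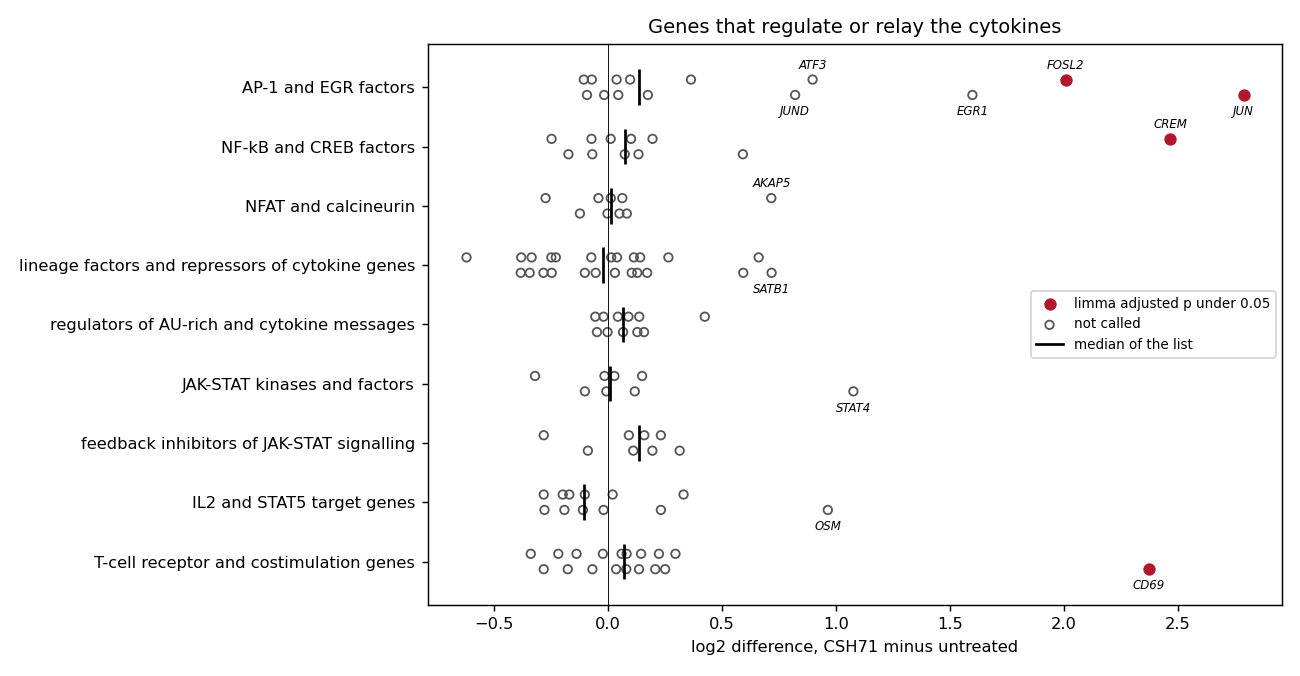
Log2 difference, CSH71 minus untreated (horizontal axis), of each measured gene in 9 lists of genes that regulate or relay the cytokines; filled red points have a limma adjusted p under 0.05, open points do not, and black bars are list medians. The called genes JUN, FOSL2, CREM and CD69 lie beyond 2.0, while the medians of all 9 lists stay between -0.10 and 0.14.

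Over all 14 lists, 146 of 229 genes were measured, of which 4 rose, 0 fell and 142 did not pass, and the 4 were JUN, FOSL2, CREM and CD69. Over all genes tested 0.0470% were called, and since the lists were drawn up with earlier results of these data known, nothing is read from the count. The median log2 difference over the 146 genes was 0.04, beside -0.01 over all genes tested. The number of list genes called was 0 with an added constant of 1, after quantile normalization, with all probe sets in the fit, with crossed pairs as a block, or without untreated replicate 1 or untreated replicate 2.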

How the data were processed

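Total RNA of 4 HUT78 samples was hybridised to Affymetrix arrays after whole-transcript labelling, 1 sample to an array, and groups and replicate numbers were taken from the sample titles. The authors deposited a linear intensity for each probe set, made with Affymetrix Expression Console, per the submitters' processing notes. How probes were summarised, corrected for background and normalized, and the version, is not given in the sources used here. Precision is limited by the number of arrays.

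The platform annotation gave 1 symbol for 16098 of 53617 probe sets, several for 0 and none for 37519. All 16098 entrez identifiers matched a RefSeq table (GRCh38.p14), and 0 symbols changed. For 779 genes with several probe sets the brightest by mean log2 value was used. Intensities were transformed to log2(intensity + 16) and fitted with limma (version 3.58.1, R 4.3.3) over 14884 genes, with 2 group means and Benjamini-Hochberg adjustment. The constant was needed because the values include 0. An exact permutation of 2 against 2 arrays cannot give a 2-sided p below 0.333, so none was run. The fit was tested on simulated data. Figures were drawn with matplotlib 3.10.9.

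The genes and the 14 lists were chosen with earlier results of these data known. Genes named beside the 4 cytokines are the called genes and the 3 with the smallest p of each list, TNF, the 5 nearest profiles and the nearest measured genes on either side of each cytokine; EPCAM, STAT3 and IKZF3 were named after their values were seen. Alternatives were other added constants, quantile normalization, median centring, removal of the dimmest 40% of genes, other variance priors, averaged probe sets, a fit of every probe set, a replicate block and each array left out.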

Additional observations from a re-analysis of the deposited data

How the results depend on the processing

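As reported, limma called 7 genes, 4 of them in the lists. These counts depended on the processing, and in most settings the cause was not tested. They were 0 and 0 with an added constant of 1 (768 genes at an unadjusted p under 0.05), after quantile normalization (927) and with all 53617 probe sets (2367), where more features are adjusted for. They were 33 and 8 with an added constant of 64, 27 and 8 after median centring, and 143 and 10 with a prior that follows intensity. Without the dimmest 40% of genes, which leaves out IL2 and IL21, 11 genes were called. With the replicate number as a block they were 28 and 7. The labels do not say that equal numbers share a culture, and the differences between replicates correlated at -0.29 over genes. With crossed pairs as a block, chosen after seeing the data, limma called 0 and 0 (1291 genes at an unadjusted p under 0.05). With the block and with the prior that follows intensity, limma gave every gene the variance of the prior alone. Leaving out each array in turn gave 0 to 29 genes and 0 to 5 list genes, with 0 when untreated replicate 1 (794 at an unadjusted p under 0.05) or untreated replicate 2 (609) was absent; a lone array was assumed to vary like the other group. The block left the log2 differences of the 4 cytokines as they were. IL2 was at 2.32 and 1.32 and IL21 at 0.75 and 0.30 with added constants of 1 and 64, since an added constant weighs more at low intensity. Without 1 array the difference ran from 1.81 to 2.08 for IL2, 0.42 to 0.68 for IL21, -0.46 to -0.26 for IL10 and 0.33 to 0.48 for LIF, and no sign changed.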

Other observations

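Among genes that act on the messages of cytokines after transcription, 0 of 11 measured were called by limma and 1 reached an unadjusted p under 0.05. The median log2 difference was 0.07. That gene was ZC3H12A, which encodes regnase-1, an RNase that degrades cytokine messages. It had 755 and 775 in CSH71 replicates 1 and 2, against 576 and 556 in untreated replicates 1 and 2, a log2 difference of 0.43 ± 0.17 (SE, limma adjusted p = 0.945). Both CSH71 arrays lay above both untreated arrays. ZC3H12C was at 0.16 ± 0.19 and AUH, an RNA-binding protein with affinity for AU-rich sequence, at 0.13 ± 0.17.

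Among genes of the T-cell receptor and costimulation, 1 of 18 measured rose, 0 fell and 17 did not pass, with a median of 0.07. Over all genes 0.0403% were called as higher. This list too was drawn up with earlier results of these data known, so its count is no independent evidence. The gene that rose was CD69, an early marker of T-cell activation, with 3016 and 3077 in CSH71 replicates 1 and 2, against 541 and 612 in untreated replicates 1 and 2 (log2 difference 2.37 ± 0.17, SE, limma adjusted p = 0.0224). ICOS, a costimulatory receptor of helper T cells, was lower on both CSH71 arrays, at 885 and 886 against 1094 and 1153 in untreated samples, and was not called (log2 difference -0.34 ± 0.17, limma adjusted p = 0.991). RASGRP1, which activates RAS below the T-cell receptor, was at -0.28 ± 0.18 (SE).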
